A study of Homo sapiens with 6 samples.

Results

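Proteins of the BCL2 family decide whether a cell opens its outer mitochondrial membrane and dies by apoptosis, and 10 of their genes were followed here among the 58302 genes of the count tables. They were taken by name and role: the anti-apoptotic genes BCL2, MCL1, BCL2L1 and BCL2A1, the effectors BAX and BAK1, and the BH3-only genes BCL2L11, BBC3, PMAIP1 and BID. The cells were HL-60, an established line of human acute myeloid leukaemia grown in suspension. In 1 group (3 libraries) the cells carried a short hairpin RNA (shRNA) against OSGEP and are labelled as an OSGEP knockdown, and in the other (3 libraries) they carried a control shRNA and are labelled as wild type. OSGEP is the catalytic subunit of KEOPS, the enzyme complex that adds t6A next to the anticodon in the tRNAs for codons starting with A. The study names apoptosis among the pathways it set out to follow after loss of OSGEP. The sources used here do not say how many hairpins or clones were used, or whether libraries of 1 group came from separate cultures, so p-values rest on the spread among the deposited libraries alone, and that spread may be technical.

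Anti-apoptotic members bind and hold the effectors and the BH3-only proteins. Effectors, once freed or activated, form pores that release cytochrome c, which starts the caspase cascade. BH3-only proteins are the sensors. Each carries a single short BH3 helix and is raised or activated by certain stresses. Together they occupy the anti-apoptotic members or activate BAX and BAK1 directly. Myeloid leukaemia cells commonly depend on BCL2, MCL1 or both, and drugs that mimic a BH3 helix, such as the BCL2 inhibitor venetoclax, exploit that dependence.

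Total counts ran from 8326982 to 10157091 per library, and levels are given as CPM (reads of a gene scaled to library size) after TMM normalisation, a scaling that offsets differences in library composition. OSGEP itself stood at 21.2, 23.1 and 20.9 CPM in the knockdown libraries 1, 2 and 3 and at 49.0, 54.4 and 76.9 CPM in the control libraries 1, 2 and 3, with every knockdown library below every control library (log2 fold change -1.47, SE 0.21, edgeR adjusted p = 0.000228). Of 14018 genes tested, 1507 passed an edgeR adjusted p of 0.05, 727 higher and 780 lower in the knockdown, which is 10.8% of those tested. Scaling by library size alone gave 859 higher and 612 lower. The count of called genes was 941 without knockdown library 3, 890 without control library 2 and 870 without control library 3. Of 7 markers of HL-60 and promyelocytes (MPO, ELANE, AZU1, PRTN3, CTSG, CD33 and SRGN), all were detected and 5 fell, their summed level going from between 3531 and 3680 CPM in the control libraries to between 1414 and 1658 CPM in the knockdown. Erythroid markers summed to at most 1.19 CPM in any library, and 5 lymphoid markers to at most 9.61 CPM. Of 6 epithelial and mesenchymal markers, the adhesion gene CDH1 rose from 3.89 ± 0.480 to 11.8 ± 1.66 CPM (SD, n = 3 each), and their sum went from between 9.72 and 12.1 CPM to between 18.8 and 21.1 CPM. The part of these shifts in the results below was not tested, and in bulk RNA a smaller share of cells of 1 type cannot be told apart from less RNA per cell.

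RefSeq promoter windows (GRCh38.p14) were matched for 9 of the 10 members, all but MCL1. The 250 bases before the RefSeq start site are printed 5′ to 3′ on the gene's own strand. They are given for the 3 members with the largest changes and for BAX, which holds the most motif matches. The GENCODE 29 genes, whose positions are given below, start further upstream, so every window lies at least partly inside its gene. The windows of BCL2A1, BCL2 and BCL2L11 lie wholly inside, as do some of BCL2L1 and BID. Capitals mark matches, on either strand, to TGATGNAA (the C/EBP-ATF response element, the site form used by ATF4), GGG and TTTCC with 2 bases of any kind between them (1 form of NF-kB site) or CACGTG (the E-box bound by MYC and MAX). No match overlapped another.
BCL2A1, chr15:79971197-79971446, minus strand: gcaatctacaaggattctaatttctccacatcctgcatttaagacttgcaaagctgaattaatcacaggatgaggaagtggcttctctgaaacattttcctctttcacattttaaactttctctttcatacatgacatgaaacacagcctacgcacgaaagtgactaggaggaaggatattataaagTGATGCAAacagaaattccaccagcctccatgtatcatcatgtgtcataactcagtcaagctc
BCL2, chr18:63319770-63320019, minus strand: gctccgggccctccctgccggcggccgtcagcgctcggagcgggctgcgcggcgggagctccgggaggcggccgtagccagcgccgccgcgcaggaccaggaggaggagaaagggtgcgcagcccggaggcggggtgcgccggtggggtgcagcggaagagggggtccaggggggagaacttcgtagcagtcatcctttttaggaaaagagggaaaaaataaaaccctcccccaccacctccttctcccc
BCL2L1, chr20:31723964-31724213, minus strand: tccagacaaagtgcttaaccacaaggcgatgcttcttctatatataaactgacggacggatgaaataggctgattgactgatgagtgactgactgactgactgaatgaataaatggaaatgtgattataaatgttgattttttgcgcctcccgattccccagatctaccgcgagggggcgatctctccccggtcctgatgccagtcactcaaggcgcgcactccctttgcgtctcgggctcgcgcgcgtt
BAX, chr19:48954625-48954874, plus strand: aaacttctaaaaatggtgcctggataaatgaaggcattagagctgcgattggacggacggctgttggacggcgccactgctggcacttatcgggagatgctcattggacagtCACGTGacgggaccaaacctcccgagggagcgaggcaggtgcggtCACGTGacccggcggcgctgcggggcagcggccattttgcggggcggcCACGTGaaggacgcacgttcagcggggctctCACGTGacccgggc
The BCL2A1 window held a TGATGNAA match starting 63 bases before the RefSeq start site and inside the GENCODE gene. This motif was found in 3.14% of 35114 RefSeq windows of this length. The BAX window held 4 CACGTG matches, where 6.35% of all windows held at least 1 and 5 windows held 4 or more. The windows of BCL2, BCL2L11, BAK1 and PMAIP1 and the 2 of BCL2L1 held none of the motifs. BBC3 held 1 CACGTG, as did 2 of the 5 windows of BID. Those BID windows overlap and share the same site. The NF-kB form, present in 1.73% of all windows, was in none of the members' windows. The BCL2 window was rich in G and C (70.0%, with 24 CpG steps) and the BCL2A1 window poor in them (38.8%, with 2), against a median of 58.0% and 11 over all windows. These matches describe letters only, and no binding was measured.

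Of the 10 members, 2 rose (BCL2L1 and BCL2A1), 2 fell (BCL2 and BCL2L11) and 6 did not pass the test, beside 5.19% of all tested genes called higher and 5.56% called lower. All 10 passed the filter on low counts. The median log2 fold change of the members was 0.22 and that of all tested genes 0.01. The groups did not overlap for 5 members (the 4 called and MCL1), beside 28.9% of all tested genes. Every member kept its direction under every alternative that was run. Of the 4 calls, 3 were of anti-apoptotic genes and 1 of a BH3-only gene.

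**Figure D1:**
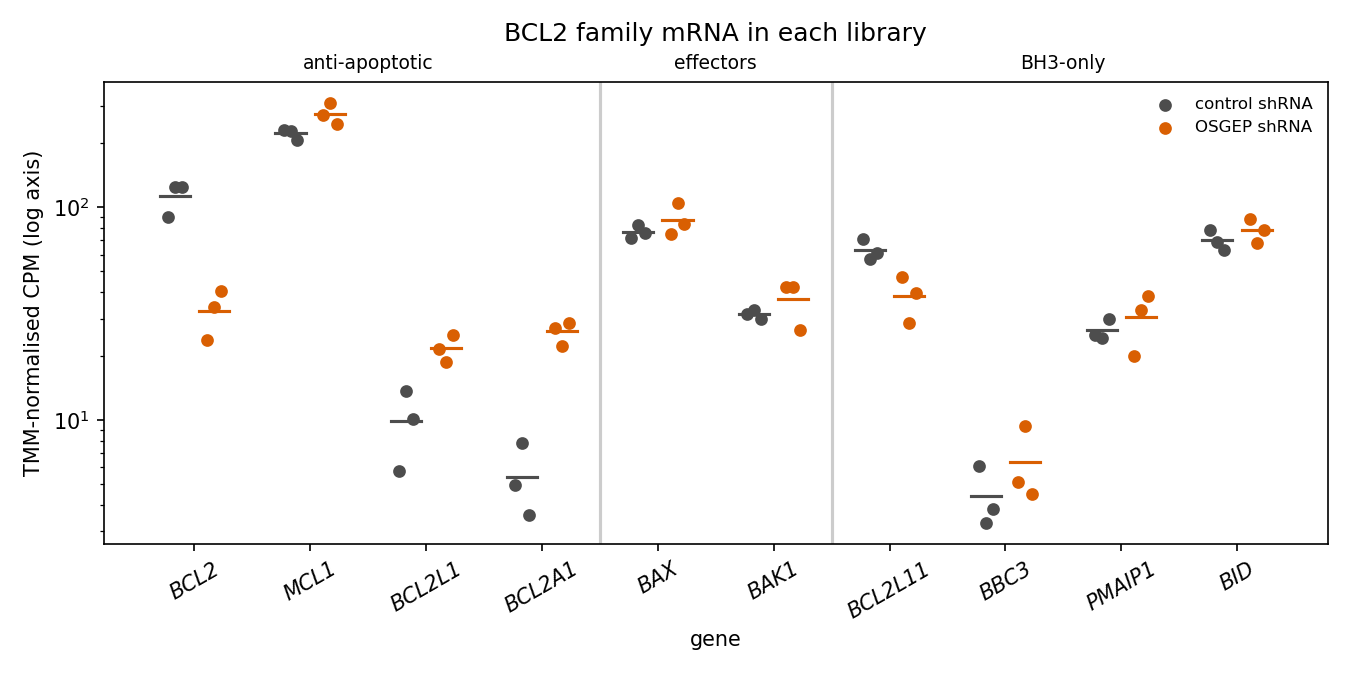
TMM-normalised CPM (log axis) of the 10 members in each of the 6 libraries; points are libraries and short lines group means. The BCL2 points of the knockdown (23.8 to 40.4 CPM) lie below all of its control points (90.5 to 124.9 CPM), and those of BCL2A1 and BCL2L1 lie above theirs.

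BCL2, the founding anti-apoptotic member and the target of venetoclax, had the clearest fall. Its level (ENSG00000171791, GRCh38 chromosome 18, 63123346 to 63320128, minus strand) was 90.5, 124.9 and 124.5 CPM in control libraries 1, 2 and 3 and 23.8, 33.8 and 40.4 CPM in knockdown libraries 1, 2 and 3. The lowest control library was thus more than double the highest knockdown library, and knockdown library 1 was the lowest of its group. The mean was 3.47-fold lower, a log2 fold change of -1.79 with a 95% interval of -2.22 to -1.36 (edgeR adjusted p = 1.92e-05). By absolute log2 fold change BCL2 ranked 692 of the 14018 genes. Fits that left out 1 library or changed the tool or scaling gave -1.96 to -1.61 and all kept the call.

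BCL2A1, a short-lived anti-apoptotic protein of blood cells known as an NF-kB target, rose from near the bottom of the family. It had 48, 76 and 29 counts in control libraries 1, 2 and 3 and 261, 242 and 242 in knockdown libraries 1, 2 and 3. In CPM these were 4.95, 7.77 and 3.57 against 27.2, 22.4 and 28.7, so the groups lay far apart while the control libraries differed among themselves by more than the knockdown libraries did on a log scale. The rise was 4.78-fold (log2 fold change 2.26, 95% interval 1.53 to 2.98, edgeR adjusted p = 0.000314), rank 406 by absolute log2 fold change. The gene (ENSG00000140379) lies on chromosome 15, 79960889 to 79971446, minus strand. Alternatives gave 2.03 to 2.60, all called.

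BCL2L1, which encodes BCL-XL and, by splicing, the pro-apoptotic BCL-XS, rose by a smaller and less stable amount. Gene counts do not separate the isoforms. Its level was 5.77, 13.7 and 10.1 CPM in control libraries 1, 2 and 3 and 21.5, 18.8 and 25.0 CPM in knockdown libraries 1, 2 and 3. The groups did not overlap, and the control libraries were spread more widely than the knockdown libraries on a log scale. The log2 fold change was 1.14 (95% interval 0.42 to 1.86, edgeR adjusted p = 0.0412). The call was lost without knockdown library 1 (1.15), knockdown library 3 (1.05), control library 1 (0.86) or control library 3 (1.15). The gene (ENSG00000171552, chromosome 20, 31664452 to 31723989, minus strand) shares 1424 bases of exon with the antisense RNA ABALON, which had 0 to 17 counts per library against 56 to 211 for BCL2L1.

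MCL1, a rapidly turned over protein on which many myeloid leukaemias depend, had the highest CPM of the members in every library, before any scaling by length. Its level was 230, 230 and 208 CPM in control libraries 1, 2 and 3 and 271, 309 and 247 CPM in knockdown libraries 1, 2 and 3. All knockdown libraries lay above all control libraries, yet the difference of 0.31 on the log2 scale (95% interval 0.06 to 0.56) did not pass over all genes (edgeR adjusted p = 0.115). DESeq2 put it just past the threshold (0.33, adjusted p = 0.0497). Over the alternatives the adjusted p ran from 0.0497 to 0.369. MCL1 (ENSG00000143384) lies on chromosome 1, 150574551 to 150579738, minus strand.

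**Figure D2:**
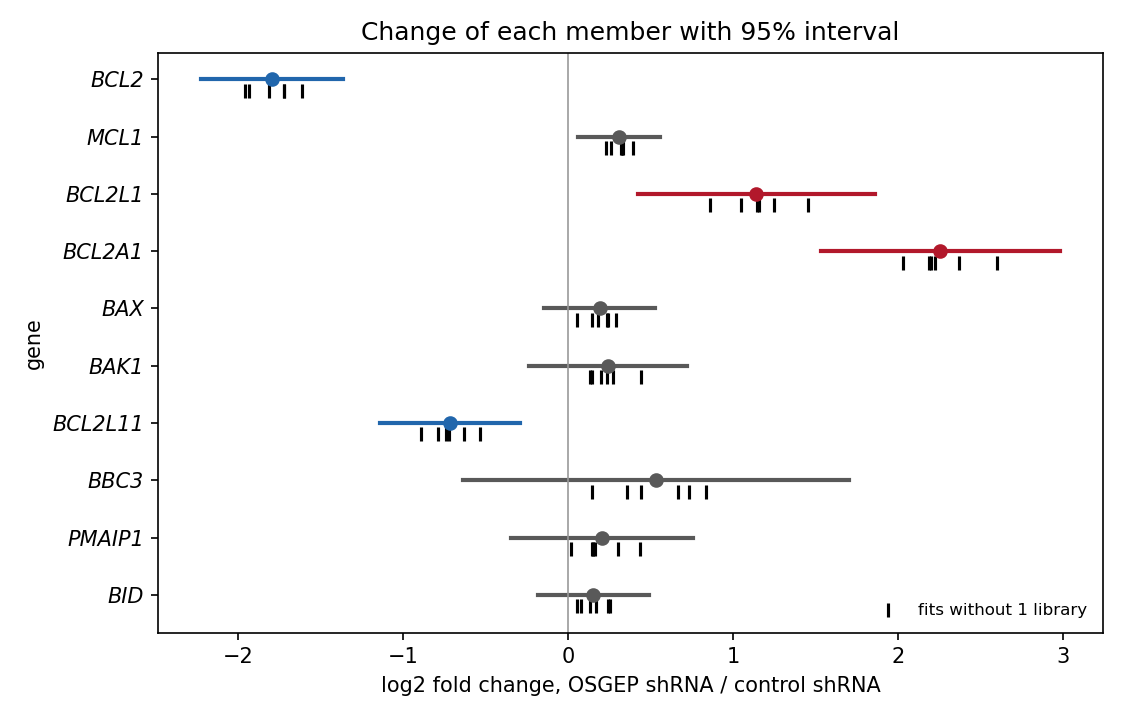
Log2 fold change (OSGEP shRNA over control shRNA) of each member with its 95% interval; blue is called lower, red called higher and grey not called, and black ticks below are the fits without 1 library. The intervals of BCL2 (-2.22 to -1.36) and BCL2A1 (1.53 to 2.98) lie far from 0, while that of BBC3 (-0.64 to 1.70) is the widest.

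The make-up of the anti-apoptotic transcripts differed between the groups as well. Levels of different genes are set side by side only per length, as CPM per kb of exon (union of all annotated exons). On this scale the 4 anti-apoptotic genes summed to 66.7, 74.4 and 64.4 in control libraries 1, 2 and 3 and to 95.5, 99.7 and 93.9 in knockdown libraries 1, 2 and 3. BCL2 held 11.5%, 14.3% and 16.4% of that sum in controls 1, 2 and 3 and 2.12%, 2.89% and 3.66% in the knockdown libraries. BCL2A1 held 6.81%, 9.59% and 5.09% in those controls against 26.2%, 20.6% and 28.1% after knockdown. MCL1 held the greatest share in every library, on average 74.5% ± 4.27 without and 65.3% ± 5.31 with the OSGEP hairpin, and BCL2L1 4.30% ± 1.52 and 6.84% ± 1.18 (SD, n = 3 each). The order of BCL2 and BCL2L1 was opposite in the groups: the ratio of BCL2 to BCL2L1 per length was 4.42, 2.57 and 3.48 in control libraries 1, 2 and 3 and 0.312, 0.508 and 0.455 in knockdown libraries 1, 2 and 3. The ratio of MCL1 to BCL2 went the other way, from 5.43 ± 1.25 to 23.9 ± 7.13. These shares and ratios are descriptions with no test of their own. They depend on the length used, since BCL2 has 11765 bases of annotated exon but 7461 in its longest coding transcript. With the latter its mean share was 18.8% among controls and 4.06% after knockdown.

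**Figure D3:**
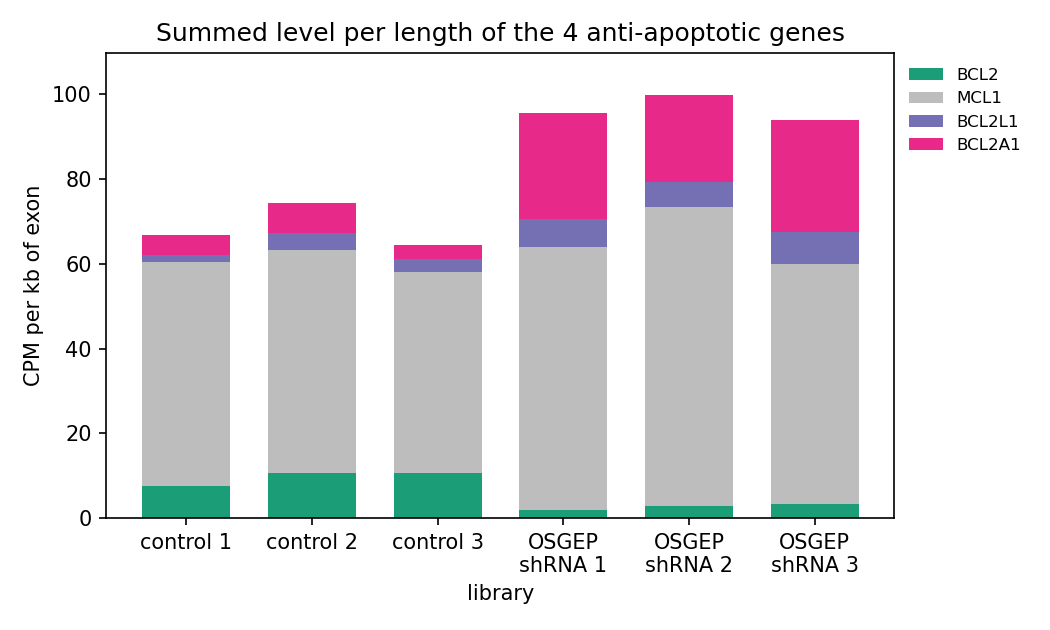
Stacked level per length (CPM per kb of exon) of BCL2, MCL1, BCL2L1 and BCL2A1 in each library. MCL1 makes up most of every bar; the BCL2 segment shrinks from between 7.69 and 10.6 in the control libraries to between 2.02 and 3.44 in the knockdown, and the BCL2A1 segment grows from between 3.28 and 7.14 to between 20.5 and 26.4.

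The effectors, which build the mitochondrial pore, did not pass the test. Control libraries held 72.0 to 82.3 CPM of BAX and knockdown libraries 74.6 to 104.4 CPM, with overlapping groups (log2 fold change 0.19, 95% interval -0.15 to 0.53, edgeR adjusted p = 0.546). For BAK1 the control libraries held 29.8 to 33.0 CPM and the knockdown libraries 26.6 to 42.4 CPM (0.24, interval -0.24 to 0.72, edgeR adjusted p = 0.609). For BAX and BAK1 the intervals leave out a doubling or a halving, but not smaller changes. BAK1 has a processed copy, BAK1P1, whose counts were 80, 13 and 17 in control libraries 1, 2 and 3 and 26, 127 and 108 in knockdown libraries 1, 2 and 3. With the reads of gene and copy summed, a choice made after seeing those counts, the log2 fold change was 0.39 (edgeR adjusted p = 0.270). BAX (ENSG00000087088) lies on chromosome 19, 48954815 to 48961798, plus strand, and BAK1 (ENSG00000030110) on chromosome 6, 33572547 to 33580293, minus strand.

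Of the 4 BH3-only members, 1 fell and 3 did not pass the test. The member that fell was BCL2L11, which encodes BIM, an activator of BAX and BAK1 that binds all anti-apoptotic members and is raised in many cells by loss of growth factors. Its level was 70.9, 57.0 and 61.2 CPM in control libraries 1, 2 and 3 and 46.8, 28.7 and 39.5 CPM in knockdown libraries 1, 2 and 3, without overlap. The log2 fold change was -0.72 (95% interval -1.14 to -0.29, edgeR adjusted p = 0.0300). The call was lost without knockdown library 2 (-0.53), knockdown library 3 (-0.72), or control library 1 (-0.63), 2 (-0.79) or 3 (-0.74). BCL2L11 (ENSG00000153094, chromosome 2, 111119378 to 111168447, plus strand) shares 727 bases of exon with the opposite-strand RNA MIR4435-2HG, which was not called (control 20.0 ± 2.25 CPM, knockdown 16.1 ± 8.27 CPM; SD, n = 3 each). How reads of the overlap were assigned is not given in the sources used here.

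BBC3 encodes PUMA and PMAIP1 encodes NOXA, BH3-only proteins raised by cellular stress, and ATF4 is among the factors that raise PMAIP1. BBC3 was the sparsest member, with 31 to 59 counts per control library and 38 to 102 per knockdown library, and its interval (log2 fold change 0.53, -0.64 to 1.70) allows a doubling as well as a fall. PMAIP1, whose protein binds MCL1, had 24.2 to 29.9 CPM per control library and 19.9 to 38.4 CPM per knockdown library (0.21, interval -0.35 to 0.76). Knockdown library 1 held the lowest PMAIP1 value of all 6 libraries and knockdown library 3 the highest. BID, which links death receptors to mitochondria once caspase-8 cleaves it, had 63.3 to 78.6 CPM per control library and 68.1 to 88.2 CPM per knockdown library (0.15, interval -0.19 to 0.49). The edgeR adjusted p was 0.650 for BBC3, 0.723 for PMAIP1 and 0.653 for BID. On GRCh38 BBC3 (ENSG00000105327) lies on chromosome 19, 47220822 to 47232766, minus strand, PMAIP1 (ENSG00000141682) on chromosome 18, 59899948 to 59904306, plus strand, and BID (ENSG00000015475) on chromosome 22, 17734138 to 17774770, minus strand.

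Ordered by level per length, the control cells ran from MCL1 (50.9 ± 2.93 CPM per kb) and BAX (29.7 ± 2.02) through BID (15.8 ± 1.75), BAK1 (14.2 ± 0.736), PMAIP1 (11.8 ± 1.37), BCL2 (9.63 ± 1.68) and BCL2L11 (9.46 ± 1.07) down to BCL2A1 (4.99 ± 1.97), BCL2L1 (2.97 ± 1.20) and BBC3 (1.38 ± 0.468; SD, n = 3). Neighbours whose control libraries overlapped were BID and BAK1, BCL2 and BCL2L11, BCL2A1 and BCL2L1, and BCL2L1 and BBC3. In the knockdown BCL2A1 moved from rank 8 to rank 3 (24.0 ± 3.04), above every library of BID, and BCL2 moved from rank 6 to rank 9 (2.78 ± 0.713), where it overlapped with BBC3 (2.00 ± 0.844). MCL1 and BAX held ranks 1 and 2 in each group. With the length of the longest coding transcript instead, BCL2 ranked 4 among controls and 9 after knockdown, and BCL2A1 ranked 8 and 4. MCL1 and BAX still ranked 1 and 2, but their control means were nearly level (56.6 ± 3.26 and 56.5 ± 3.84). Their knockdown means were 70.1 ± 7.86 and 64.5 ± 11.2. On this length BAX was above MCL1 in control libraries 2 (60.6 against 58.4) and 3 (55.8 against 52.8), and below it in the rest. Summed per length, the BH3-only members alone had means of 38.4 ± 2.82 (control) and 38.9 ± 2.71 CPM per kb (knockdown). The effectors had means of 43.9 ± 2.52 and 50.6 ± 7.94 (SD, n = 3 each). For both sums the libraries of the groups overlapped.

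Genes were ranked by the likeness of their pattern over the 6 libraries to that of each called member. Likeness was the Pearson r of log2(CPM + 1) among 9269 protein-coding genes with a mean of at least 5 CPM. It takes no account of the size of a change. For BCL2 the most alike were FNBP4 (r = 0.9966), PLAC8 (0.9964) and ANKRD13A (0.9949). For BCL2A1 they were BAG3, a co-chaperone (0.9980), SERINC2 (0.9973) and the syndecan SDC2 (0.9960). For BCL2L1 they were ATP5F1B, a subunit of ATP synthase (0.9944), MFSD1 (0.9845) and SLC25A33 (0.9842), and for BCL2L11 the basement membrane gene NID1 (0.9935), KRR1 (0.9931) and GLMN (0.9917). Some of these genes changed little and were not called. They were ATP5F1B (log2 fold change 0.25), MFSD1 (0.23) and SLC25A33 (0.40) for BCL2L1, and KRR1 (-0.45) and GLMN (-0.15) for BCL2L11. The others were called. The points are only 6 libraries in 2 groups and the genes are the highest of 9269, so the values are descriptions.

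The share of codons that start with A, those read by tRNAs that can carry t6A, was counted in 1 coding model for each gene. BCL2A1 had 56 such codons of 175 (32.0%), PMAIP1 16 of 54 (29.6%) and BID 69 of 241 (28.6%). BAX stood at 25.5%, BCL2L11 at 25.4%, BCL2L1 at 24.9% and MCL1 at 23.4%. The lowest were BCL2 with 46 of 239 (19.2%), BAK1 with 38 of 211 (18.0%) and BBC3 with 20 of 193 (10.4%). Over 11115 tested coding genes the median was 27.3%, with 10th and 90th percentiles of 19.6% and 33.0%. The members therefore spanned much of the range, with 0.27% of those genes lying below BBC3, and mRNA counts do not measure how the codons were read.

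Other genes of the pathway were taken from lists grouped by known function, and their counts stand beside the 10.8% of all tested genes that were called (5.19% higher and 5.56% lower). Of 13 further BCL2 family genes, 8 were tested, of which 1 fell, 0 rose and 7 were not called (median log2 fold change -0.19), a share close to that of all tested genes. The fall was that of BNIP3, a mitochondrial receptor for mitophagy that is raised by hypoxia, from 75.2 ± 7.81 to 20.8 ± 4.44 CPM (SD, n = 3 each; -1.85, edgeR adjusted p = 1.32e-05). Of the genes not called, 1, BMF, had an unadjusted edgeR p under 0.05 (log2 fold change 0.79, 95% interval 0.15 to 1.43, edgeR adjusted p = 0.117). The 5 untested genes (BCL2L10, BCL2L14, BCL2L15, BOK and HRK) did not pass the filter on low counts. Of 14 tested genes of the apoptosome, the caspases and their inhibitors, edgeR called 0 (median 0.13), with 1, AIFM1, at an unadjusted p under 0.05, and DESeq2 and limma-voom also called 0. The highest mean CPM in this list, not scaled by length, belonged to CYCS and BIRC6. CYCS, which encodes cytochrome c, had 1088 ± 117 CPM under the control hairpin and 1206 ± 158 CPM under the OSGEP hairpin. BIRC6, a giant inhibitor of apoptosis, had 133 ± 13.5 and 139.8 ± 9.04 CPM (SD, n = 3 each).

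Of 15 binding partners and turnover factors, 1 rose, 0 fell and 14 were not called (median 0.09), a share no greater than that of all tested genes, 10.8%. An unadjusted edgeR p under 0.05 was reached by 3 genes not called: USP9X (log2 fold change 0.36), BCAP31 (0.36) and BAG1 (0.38). PIM1, a kinase that phosphorylates the BH3-only protein BAD, rose from 35.5 ± 1.90 to 94.8 ± 12.8 CPM (SD, n = 3 each; log2 fold change 1.42, edgeR adjusted p = 2.73e-05). BAD itself was sparse, between 1.48 and 4.74 CPM, and was not called. Of 19 transcription factors and RNAs known to control members, 18 were tested, of which 1 rose and 2 fell (median 0.09), again beside 10.8% of all tested genes. Here 4 genes not called had an unadjusted edgeR p under 0.05: FOXO3 (log2 fold change -0.41), STAT5B (-0.54), HIF1A (0.54) and WT1 (-0.93). MYB, an activator of BCL2 transcription in blood cells, fell from 166 ± 13.1 to 63.1 ± 14.4 CPM (-1.39, edgeR adjusted p = 3.48e-05), and MYC fell from 536 ± 43.5 to 333 ± 37.8 CPM (-0.69, edgeR adjusted p = 0.000602). ATF4, the main factor of the integrated stress response, rose from 203 ± 2.98 to 410 ± 23.4 CPM (1.01, edgeR adjusted p = 8.07e-06), all SD with n = 3 each. NFKB1, REL and RELA encode subunits of the NF-kB factors known to drive BCL2A1, and were not called. Their log2 fold changes were 0.13 (95% interval -0.30 to 0.56), 0.06 (-0.65 to 0.77) and 0.15 (-0.17 to 0.48). These are mRNA levels, and a part of NF-kB in the BCL2A1 rise was not tested.

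**Figure D4:**
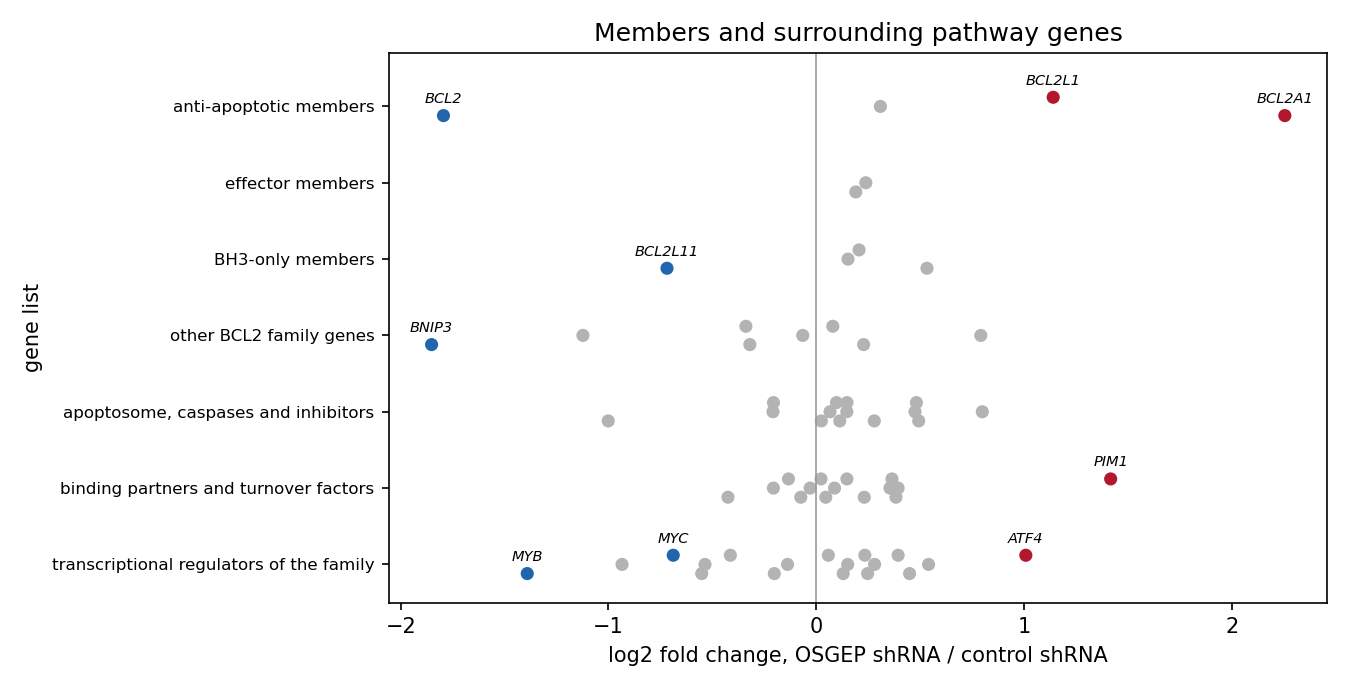
Log2 fold change (OSGEP shRNA over control shRNA) of each tested gene, 1 row per gene list; red is called higher, blue called lower and grey not called, and vertical offsets only separate points. Calls among the members (BCL2, BCL2L11, BCL2L1 and BCL2A1) stand beside BNIP3, PIM1, MYB, MYC and ATF4, while 0 of 14 genes of the apoptosome row are coloured.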

How the data were processed

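RNA sequencing of 6 HL-60 libraries yielded deposited tables of raw counts for each Ensembl identifier. Per the submitters' processing notes, HISAT2 2.1.0 and featureCounts 1.6.3 were used, with GRCh38 and GRCm38 listed. Per the labels' protocols, reads came from a stranded mRNA kit as 150 bp pairs. The handling of strand, annotation release and multi-mapped reads is not given in the sources used here.

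Groups came from sample titles. Libraries of 1 group differed by more than sampling noise (chi-square per degree of freedom 10.9 to 28.0 over genes) and each counted as 1 replicate. Symbols and positions came from GENCODE 29 (58039 of 58302 identifiers) and a table of current names. Some items are not reported here. All genes that passed filterByExpr (minimum count 10, minimum total 15) were tested with edgeR 4.0.16 (R 4.3.3), quasi-likelihood F test, two-sided, with TMM normalisation, a design of group alone and Benjamini-Hochberg adjustment over all of them, called at 0.05. Standard errors came from the F statistic. DESeq2 1.42.0 and limma-voom (limma 3.58.1) were alternatives. Members and lists were chosen with earlier results of these data known. Named genes were all members, OSGEP, and up to 6 called genes per further list or otherwise the 2 of highest mean CPM. The 3 genes of most similar pattern per called member were also named. Other named genes were chosen after their values were seen.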

Additional observations from a re-analysis of the deposited data

How the results depend on the processing

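Counts of called genes were 727 higher and 780 lower. At an adjusted p of 0.01 they were 400 and 423, with 1 member higher and 1 lower. Without 1 library they ran from 445 to 726 higher and from 423 to 898 lower, with 1 to 2 members called higher and 1 to 2 called lower. In those fits the binding partners and turnover factors had 1 to 2 called higher and the transcriptional regulators 2 to 4 called lower, the latter reached without knockdown library 1, where WT1 and E2F1 were added. The count of binding partners called higher was 2 under scaling by library size, under the filter at a mean CPM of 5 and in DESeq2, BAG1 being the addition. OSGEP, BCL2 and BCL2A1 kept their calls in all 13 alternatives run for each, and BCL2L1 and BCL2L11 in 8 of 13 each. With the length of the longest coding transcript, the share of the anti-apoptotic level was 18.8% for BCL2 and 70.2% for MCL1 in the control, and 4.06% for BCL2 in the knockdown. Libraries with the same number did not deviate together (correlations of -0.12, -0.06 and -0.04), so the numbers were not taken to pair them. With the replicate number as a block, 519 genes were called higher and 553 lower, and 1 member higher, BCL2L1 standing at 1.21 with an edgeR adjusted p of 0.0611. No library correlated best with the library of its own number. Low counts limit BBC3 most.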
